A study of Mus musculus with 32 samples.

Results

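The LIM homeobox genes Lhx1, Lhx2, Lhx5 and Lhx9 were followed through 6 days of retinal organoid formation from mouse embryonic stem cells. They were chosen by gene symbol alone and make up 4 of the 55492 rows of the deposited expression table. All 32 libraries were used. The study asked how loss of the RNA methylation enzyme Mettl3, and its return as a protein that can be moved into the nucleus, affects early retinal development. WT cultures are the Rx:GFP embryonic stem cell line, given no Dex. KO cultures are the same line with a Mettl3 knockout, also given no Dex. No Dex and Dex cultures both descend from the KO line and carry a METTL3-GRBD fusion. The fusion is described as cytosolic in untreated cells and as nuclear when dexamethasone (Dex), a synthetic glucocorticoid, is added. Both fusion groups therefore share the knockout with KO. Dex was given at 10 µM, and all groups at days 2, 4 and 6 were also grown with an additive named AGN at 0.1 µM. RNA was taken from the stem cells at day 0 and from the organoids at days 2, 4 and 6, which gives 16 groups of 2 libraries. Some day 0 samples are labelled as treated with Dex although the protocol names Dex only for the later days, and the labels were followed. The number of clones per line is not given, and the duplicates are described as 2 rounds of library preparation, so the p-values measure the spread between these libraries only.

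LIM homeobox proteins bind DNA through a homeodomain and bind partner proteins through a pair of LIM zinc-finger domains. Their main partner is Ldb1, which joins LIM homeobox proteins into larger complexes, while LIM-only proteins such as Lmo4 compete for it. Lhx2 is needed for the eye field to become an optic vesicle and for the growth of the forebrain. Lhx5 acts in the anterior neural plate, hypothalamus and Cajal-Retzius neurons, Lhx9 in the thalamus, limb, gonad and spinal interneurons, and Lhx1 in the head organizer, the kidney and retinal horizontal cells.

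Values are FPKM, fragments scaled by transcript length and by mapped fragments, which compare genes per length. The estimated depth of a library was 28.74 to 54.4 M fragments (M, mega), the median being 37.88 M. Pearson r between duplicates, across genes, was 0.99225 to 0.99548. The floor that 3 fragments set lay between 0.0119 and 0.0441 FPKM for the 4 genes. The targeted gene was not lower in KO libraries, with Mettl3 between 34.88 and 43.83 FPKM in KO and between 32.51 and 41.21 FPKM in WT, and since a gene-level value cannot show a small deletion it does not check the labels. Of the tissue markers for retinal organoids, the KO day 6 cultures held Rax at 0.30 FPKM, Six6 at 0.02 FPKM and Six3 at 0.635 FPKM, while Pax6 was at 111.7 FPKM, so the retinal label is not borne out there by these 3 of its markers.

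The genes lie on 4 chromosomes of GRCm38 in the GENCODE M21 annotation. Lhx1 (ENSMUSG00000018698) is at chr11:84518284-84525535 on the minus strand and Lhx2 (ENSMUSG00000000247) at chr2:38339281-38369733 on the plus strand. Lhx5 (ENSMUSG00000029595) is at chr5:120431699-120441223 on the plus strand and Lhx9 (ENSMUSG00000019230) at chr1:138825186-138848577 on the minus strand. RefSeq promoter windows of GRCm38.p6, from 250 bases before to 50 after a start, matched 3 of the 4 symbols. Those of Lhx2 and Lhx9 are printed because these genes moved in opposite directions at day 6. Each is written 5′ to 3′ on the gene's own strand, chr2:38339031-38339330 for Lhx2 and chr1:138842395-138842694 for Lhx9. The Lhx2 window spans the annotated start of its gene at 38339281. The Lhx9 window belongs to a start inside its gene, whose annotated 5′ end is at 138848577, so the windows are not at like positions. Capitals mark GGGCGG (the GC box core), TAAT (the core bound by many homeodomains) and CCAAT, searched on both strands, so that ATTA and ATTGG are the same motifs read from the other strand.
Lhx2 promoter: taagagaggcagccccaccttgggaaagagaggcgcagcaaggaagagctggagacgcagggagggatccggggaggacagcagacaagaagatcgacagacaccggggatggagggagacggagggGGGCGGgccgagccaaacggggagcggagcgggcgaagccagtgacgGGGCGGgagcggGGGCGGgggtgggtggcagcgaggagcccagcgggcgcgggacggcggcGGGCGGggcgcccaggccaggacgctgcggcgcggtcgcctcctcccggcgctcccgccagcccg
Lhx9 promoter: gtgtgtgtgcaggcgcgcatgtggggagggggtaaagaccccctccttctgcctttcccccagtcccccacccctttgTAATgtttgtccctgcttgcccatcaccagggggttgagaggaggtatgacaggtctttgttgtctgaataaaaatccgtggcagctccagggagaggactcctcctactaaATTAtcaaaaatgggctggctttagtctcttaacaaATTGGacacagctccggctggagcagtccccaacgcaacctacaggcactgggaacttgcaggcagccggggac
The Lhx2 window held 4 GC boxes, no TAAT and 34 CG pairs at 74.67% GC. The Lhx9 window held no GC box, 2 TAAT, 1 CCAAT and 6 CG pairs at 55.33% GC. Among 32851 promoter windows of this length, 35.66% held GGGCGG, 58.03% TAAT and 37.41% CCAAT, the median number of CG pairs was 7 and the median GC content 52.67%. The Lhx1 window held 31 CG pairs, 1 TAAT and 1 CCAAT, and a second Lhx2 window, at chr2:38351058-38351357, held 29 CG pairs and none of the 3 motifs.

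Mettl3 places its mark, N6-methyladenosine (m6A), on the A of short motifs of which GGACT is a favoured form. The coding windows of the 2 members that hold GGACT in the coding sequence read are printed with the motif in capitals, 21 bases each, from GRCm38. No methylation was measured, so a match is only a description.
Lhx1 exon 3, chr11:84521892-84521912: gatgccaaGGACTctgaaagt
Lhx1 exon 5, chr11:84519702-84519722: cccccaggGGACTcgcctagt
Lhx2 exon 3, chr2:38354513-38354533: cgcgctcgGGACTtggtttat
Lhx2 exon 4, chr2:38360044-38360064: gatgccaaGGACTtgaagcag
The Lhx1 exon 3 and Lhx2 exon 4 windows are the same up to the end of the motif. The coding sequences read for Lhx5 and Lhx9 held no GGACT. For Lhx9 that sequence belongs to a shorter transcript than the longest one, which held 4 GGACT over its whole length. Over the longest annotated transcript the density was 1.04 per kilobase for Lhx1, 1.41 for Lhx2, 0.74 for Lhx5 and 0.81 for Lhx9, against a median of 1.01 over 21877 protein-coding genes, of which 87.62% held at least 1.

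**Figure D1:**
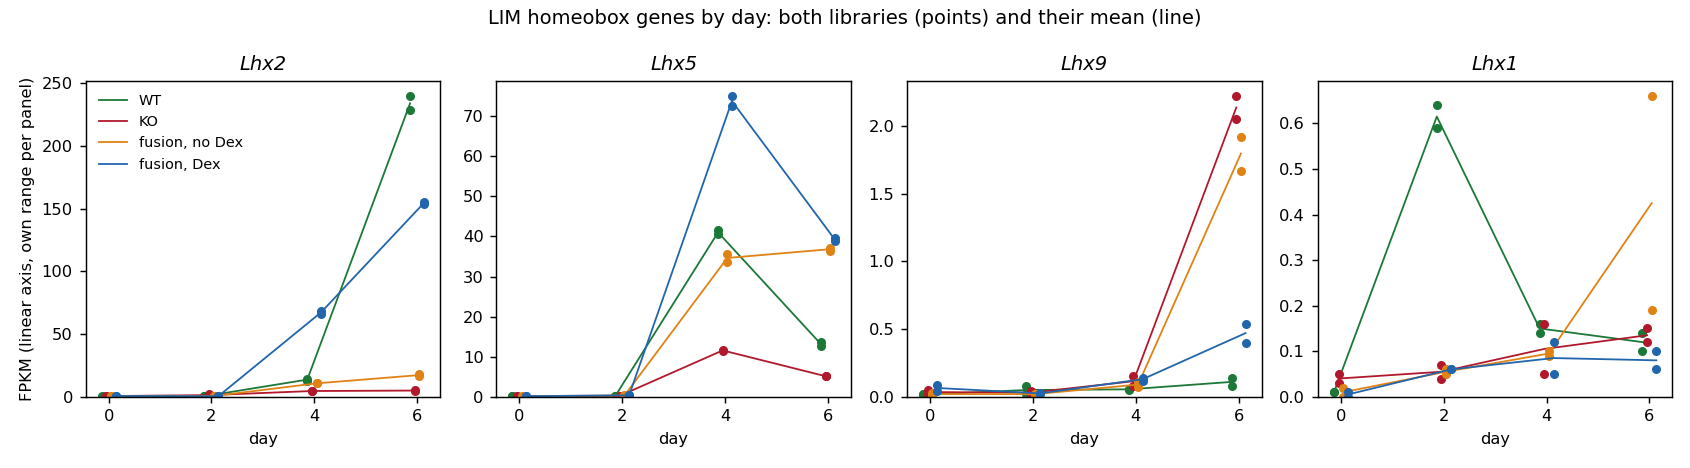
FPKM (linear axis, own range in each panel) of Lhx2, Lhx5, Lhx9 and Lhx1 against day for WT, KO and the fusion line without and with Dex. Points are single libraries and lines join the means of 2. Lhx2 ends highest in WT at 233.995 FPKM, Lhx5 peaks with Dex at day 4 at 73.765 FPKM, Lhx9 appears at day 6 in KO and no Dex, and Lhx1 has its highest WT values at day 2.

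Lhx2 reached the highest level of the 4 genes, in WT at day 6, while Lhx5 had the higher mean in all 4 cultures at day 4. In WT its 2 libraries stood at 0.22 and 0.29 FPKM at day 0, 0.29 and 0.58 at day 2, 14.43 and 12.97 at day 4, and 239.75 and 228.24 at day 6. KO libraries stood at 0.57 and 0.58 FPKM, then 0.80 and 1.84, then 4.52 and 4.67, and finally 4.59 and 5.35. Lhx2 was thus present in KO from day 4 on, but lay at a plateau that none of the later WT values touched. Without Dex the fusion line gave 0.39 and 0.49 FPKM at day 0, 0.56 and 0.68 at day 2, 10.65 and 10.79 at day 4, and 18.00 and 16.62 at day 6. With Dex it gave 0.71 and 0.62 FPKM, 0.36 and 0.52, 65.98 and 68.79, and 153.91 and 155.23. At day 4 the Dex libraries were above every other culture, and at day 6 they lay between no Dex and WT. In the order of group means, WT and Dex at day 6 came first and second with no overlap of libraries, and the neighbours whose libraries overlapped were KO at days 6 and 4 and several groups at or below 0.665 FPKM at days 0 and 2.

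Lhx5 rose in all 4 cultures between days 2 and 4 and then parted from Lhx2. WT libraries stood at 0.10 and 0.08 FPKM at day 0, 0.15 and 0.20 at day 2, 40.54 and 41.48 at day 4, and 12.69 and 13.61 at day 6. KO gave 0.22 and 0.19 FPKM, 0.32 and 0.18, 11.45 and 11.69, and 5.10 and 5.18. WT and KO thus shared a peak at day 4, lower in KO. Without Dex the values were 0.17 and 0.07 FPKM, 0.33 and 0.32, 35.57 and 33.68, and 36.43 and 37.21. With Dex they were 0.09 and 0.21 FPKM, 0.36 and 0.38, 72.52 and 75.01, and 38.85 and 39.64. The fusion line without Dex therefore held its day 4 level to day 6, and with Dex it peaked highest and then came down to 39.2 FPKM on average. The 8 group means from days 4 and 6 did not overlap their neighbours in the order of levels, from 73.765 FPKM in Dex at day 4 down to 5.14 FPKM in KO at day 6.

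Lhx9 was almost silent until day 6 and then appeared in the cultures where Lhx2 was low. WT libraries stayed between 0.01 and 0.14 FPKM at all days. At days 0, 2 and 4 the other cultures lay between 0.01 and 0.15 FPKM. At day 6 KO gave 2.22 and 2.05 FPKM, no Dex 1.67 and 1.92, Dex 0.40 and 0.54, and WT 0.08 and 0.14. These 4 groups did not overlap at day 6, while below the Dex mean of 0.47 FPKM the libraries of neighbouring groups overlapped throughout.

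Lhx1 stayed below 1 FPKM in every library and so did not enter the main test. WT libraries gave 0.01 and 0.01 FPKM at day 0, 0.59 and 0.64 at day 2, 0.14 and 0.16 at day 4, and 0.10 and 0.14 at day 6. The day 2 values correspond to an estimated 89.4 and 80.9 fragments. KO gave 0.04 and 0.07 FPKM at day 2, no Dex 0.06 and 0.05, and Dex 0.06 and 0.06, so that WT stood alone at that day, with 11.2 times the KO mean on the linear scale. At days 4 and 6 the libraries of KO and Dex lay between 0.05 and 0.16 FPKM. Without Dex they were 0.10 and 0.09 FPKM at day 4, and at day 6 the duplicates disagreed, at 0.66 and 0.19 FPKM.

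Differences were tested on log2(FPKM + 1) with limma in 1 fit over all libraries, on the 16276 genes with at least 1 FPKM in at least 2 libraries, with p-values adjusted by Benjamini-Hochberg over those genes and a call below 0.05. Of the members Lhx2, Lhx5 and Lhx9 passed that filter, Lhx9 only through the 4 KO and no Dex libraries of day 6 in which it was high, so counts over the tested members are descriptions. The log2(FPKM + 1) scale understates changes of low genes. In bulk RNA, fewer cells of a type and less RNA per cell cannot be told apart.

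Loss of Mettl3 went with less Lhx2 and Lhx5 and, at day 6, more Lhx9. At day 6 all 3 tested members were called, where 65.1% of all tested genes were called. Lhx2 fell from 234 ± 8.14 FPKM in WT to 4.97 ± 0.54 FPKM in KO (SD, n = 2), which leaves 2.12% of the WT level on the linear scale. The fitted log2 difference was -5.30 ± 0.14 (SE; adjusted p = 5.48e-17). Lhx5 fell by 1.20 ± 0.06 (adjusted p = 5.51e-13), to 39.1% of WT. Lhx9 rose by 1.50 ± 0.06 (adjusted p = 4.12e-14).

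At day 4 Lhx2 and Lhx5 were called and Lhx9 was not, where 60.5% of all tested genes were called. Lhx2 fell by 1.39 (adjusted p = 3.55e-08) and Lhx5 by 1.74 (adjusted p = 5.95e-15) on the log2 scale. Lhx9 differed by 0.08 (adjusted p = 0.274). Before day 4 the order was the other way. At day 2 only Lhx2 of the tested members was called, where 58.9% of genes were, and it was higher in KO by 0.66 (adjusted p = 0.000338). That value rests on duplicates of 0.80 and 1.84 FPKM and was not called when only the compared groups were fitted (adjusted p = 0.131). At day 0, where 48.2% of genes were called, Lhx5 was higher in KO by 0.14 (adjusted p = 0.045), a call that was lost without any 1 of the 4 libraries, and Lhx2 differed by 0.33 (adjusted p = 0.0547).

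Without a filter on low values Lhx1 could be tested among 34331 genes. It was lower in KO than in WT at day 2 by 0.61 on the log2 scale (adjusted p = 1.86e-05), where 30.6% of genes were called. In WT it rose by 0.68 from day 0 to day 2 (adjusted p = 4.12e-06; 35.5% of genes called) and fell by 0.49 from day 2 to day 4 (adjusted p = 0.000211; 30.4% called). Lhx1 also marks the mesendoderm and the visceral endoderm, and most markers of those cells were also lower in KO at day 2. Summed over 9 markers (T, Mixl1, Eomes, Foxa2, Sox17, Gata4, Gata6, Afp and Ttr), they stood between 29.25 and 31.72 FPKM in WT at day 2 and between 15.58 and 15.77 FPKM in KO. Of the 7 that were tested, 6 fell in KO at day 2 and 1, Eomes, rose, where 21.3% of all tested genes fell and 37.5% rose. Afp and Ttr passed the filter only through WT libraries, and Foxa2 had group means of at least 1 FPKM only in WT. The highest Foxa2 mean elsewhere was 0.73 FPKM, with Dex at day 6, so the count is a description. Gata6 fell by 2.01 (adjusted p = 3.64e-12) and Ttr by 2.45 (adjusted p = 3.84e-15), and Ttr was listed at 0 in KO. The part these cells play in the Lhx1 value was not tested. At the other days the sum and Lhx1 went apart. At day 0 the sum was between 18.21 and 18.27 FPKM in WT and between 5.33 and 6.07 FPKM in KO. Lhx1 then averaged 0.01 FPKM in WT and 0.04 FPKM in KO. In WT the sum rose to between 35.89 and 37.51 FPKM at day 4, while Lhx1 fell. At day 6 the same sum was between 47.41 and 47.82 FPKM in WT, and Lhx1 was at most 0.14 FPKM there.

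**Figure D2:**
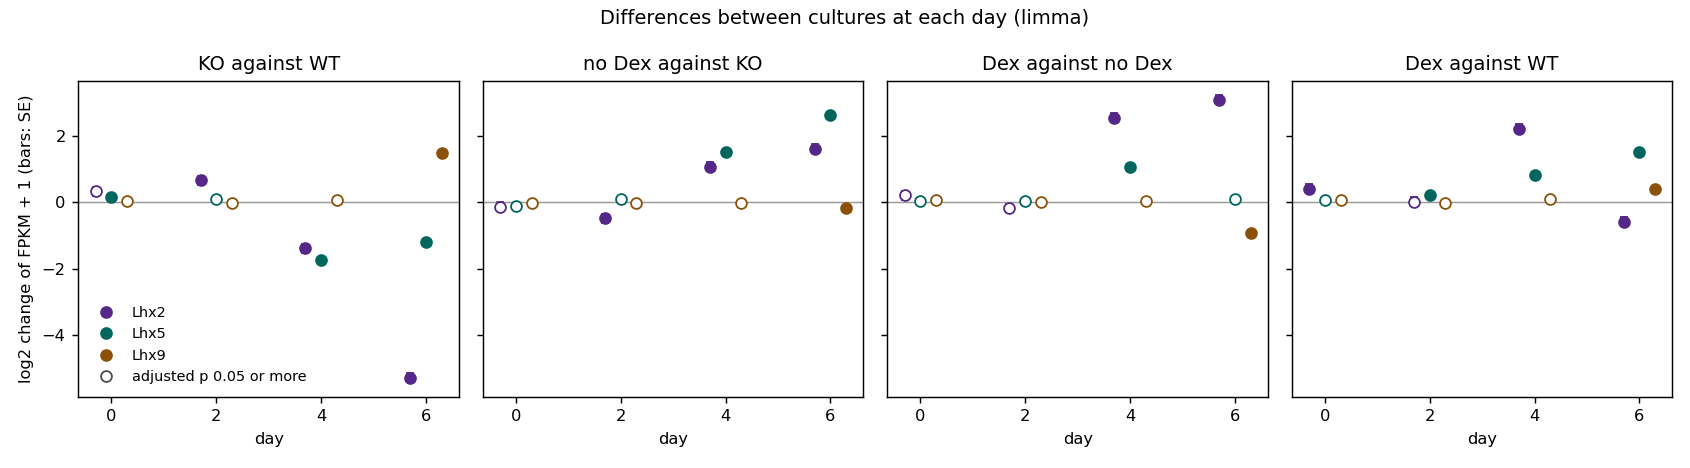
Log2 change of FPKM + 1 for Lhx2, Lhx5 and Lhx9 by day, in 4 panels for KO against WT, no Dex against KO, Dex against no Dex and Dex against WT. Points are limma estimates, bars their SE and open points those with an adjusted p of 0.05 or more. At day 6 Lhx2 lies at -5.30 in the KO against WT panel and at 3.09 in the Dex against no Dex panel, and Lhx9 at 1.50 and -0.93.

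In the fusion line without Dex, Lhx5 stood far above its KO level and Lhx2 only part of the way to WT. No Dex is compared with KO here and shares those libraries with KO against WT, so only its own values are given. At day 6 all 3 tested members were called, where 49.0% of genes were. Lhx5 was higher than in KO by 2.62 ± 0.06 (adjusted p = 4.4e-17), 7.16 times the KO mean, and Lhx2 by 1.62 ± 0.14 (adjusted p = 7.95e-09), 3.48 times the KO mean. Lhx2 at 17.3 FPKM remained far below the WT level of 234 FPKM. Lhx9 was lower by 0.17 (adjusted p = 0.0281), a call lost with a pseudocount of 0.1 (adjusted p = 0.474), after rescaling (0.0513), in a fit of the compared groups (0.169), and without no Dex replicate 1 (0.27) or KO replicate 1 (0.189).

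At day 4 Lhx5 was higher without Dex than in KO by 1.50 (adjusted p = 1.52e-12) and Lhx2 by 1.07 (adjusted p = 1.14e-05), where 26.7% of genes were called. Both were among the 38 called genes whose log2 difference reached 1 in size. Lhx9 differed by -0.03 (adjusted p = 0.764). At day 2, where 37.0% of genes were called, only Lhx2 of the tested members was, and it was lower by 0.48 (adjusted p = 0.00917). Without KO replicate 2, the library at 1.84 FPKM, this was -0.15 (adjusted p = 0.309). None of the tested members was called at day 0, where 49.1% of genes were. The Lhx1 value at day 6, higher than in KO by 0.31 with no filter (adjusted p = 0.0139; 25.2% of genes called), rests on the no Dex library at 0.66 FPKM and was 0.07 without it.

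With Dex, Lhx2 was higher at days 4 and 6, Lhx5 higher at day 4 and Lhx9 lower at day 6 than without it. Only the fusion line was given Dex. A response to Dex itself and one to the moved fusion therefore cannot be told apart, here or against WT. At day 4 Lhx2 was 6.29 times and Lhx5 2.13 times its mean without Dex. On the log2 scale these were 2.54 ± 0.14 (adjusted p = 3.65e-11) and 1.07 ± 0.06 (adjusted p = 3.79e-11), where 40.2% of genes were called. At day 6 Lhx2 and Lhx9 were called, where 42.7% of genes were. Lhx2 was 8.93 times its level without Dex, 3.09 ± 0.14 (adjusted p = 1.64e-12). Lhx9 fell by 0.93 ± 0.06 (adjusted p = 3.78e-10), from 1.80 ± 0.18 to 0.47 ± 0.10 FPKM (SD, n = 2). Lhx5 differed by 0.09 ± 0.06 (adjusted p = 0.232) at that day. At days 0 and 2 none of the tested members was called, where 43.4% and 44.3% of genes were.

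Set against WT, Dex cultures were higher in Lhx2 and Lhx5 at day 4 and ended below WT in Lhx2. The cultures also differed in the sum of the 4 stem cell markers at day 4. It lay between 428.16 and 434.23 FPKM in WT and between 102.79 and 105.03 FPKM with Dex. KO held between 236.16 and 241.11 FPKM and no Dex between 245.59 and 249.59 FPKM. The part of this difference in the Lhx2 and Lhx5 values was not tested. At day 4, where 44.7% of genes were called, Lhx2 was 4.92 times the WT mean (log2 change 2.22, adjusted p = 1.57e-10) and Lhx5 1.80 times (0.83, adjusted p = 8.24e-10). At day 6, where 61.4% of genes were called, all 3 tested members differed from WT. Lhx2 was at 66.1% of WT (log2 change -0.59, adjusted p = 0.000859, but 0.0536 with a pseudocount of 0.1). Lhx5 was 2.98 times WT (1.51, adjusted p = 3.71e-14) and Lhx9 was higher by 0.40 (adjusted p = 9.1e-06). The Dex means of Lhx2 and Lhx9 were thus nearer to WT than the no Dex means, while Lhx5 was above its WT mean of 13.2 FPKM both with Dex, at 39.2 FPKM, and without, at 36.8 FPKM. At day 2 Lhx5 alone among the tested members was called, higher by 0.22 (adjusted p = 0.00633; 29.4% of genes called). It was not called in a fit of the compared groups (adjusted p = 0.051) or without WT replicate 1 (0.0641). At day 0 Lhx2 was higher by 0.41 (adjusted p = 0.0178; 49.8% of genes called). That call was lost without WT replicate 1 (adjusted p = 0.0947) or Dex replicate 1 (0.093). Lhx1 at day 2 was lower with Dex than in WT by 0.61 with no filter (adjusted p = 8.53e-05; 12.8% of genes called).

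The day steps within each culture showed when each gene moved. Between days 2 and 4 Lhx2 rose by 3.36 in WT (adjusted p = 7.72e-14; 59.9% of genes called), 1.31 in KO (7.96e-08; 64.2%), 2.86 without Dex (8.1e-13; 60.8%) and 5.57 with Dex (2.42e-17; 66.7%). Over that step Lhx5 rose by 5.16, 3.33, 4.75 and 5.77, with adjusted p of at most 2.33e-19. Both genes were therefore switched on in all 4 cultures, KO included, and the step was smallest in KO. With Dex, Lhx9 rose over this step by 0.14 (adjusted p = 0.0468), a call lost without any 1 of its 4 libraries. Between days 4 and 6 Lhx2 rose by a further 4.00 in WT (adjusted p = 3.44e-15; 66.7%), 0.64 without Dex (0.000348; 67.9%) and 1.19 with Dex (2.55e-07; 65.1%), and in KO it differed by 0.09 (0.585; 65.3%). Lhx5 fell over the same days by 1.57 in WT (adjusted p = 1.02e-14), 1.03 in KO (5.58e-12) and 0.89 with Dex (5.42e-11), and differed by 0.09 without Dex (0.193). Lhx9 rose in KO by 1.49 (adjusted p = 4.04e-14), without Dex by 1.36 (1.52e-13) and with Dex by 0.38 (1.69e-05), and in WT it differed by 0.07 (0.303).

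Over the first 2 days Lhx5 rose by 0.24 without Dex (adjusted p = 0.00092; 67.9% of genes called) and by 0.25 with Dex (0.000745; 60.6%), from means of 0.12 and 0.15 FPKM. Lhx2 rose by 0.52 in KO (adjusted p = 0.00234; 65.6%), which was 0.19 (0.119) without the KO library at 1.84 FPKM. None of the 3 tested members was called in WT, where 63.4% of genes were.

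**Figure D3:**
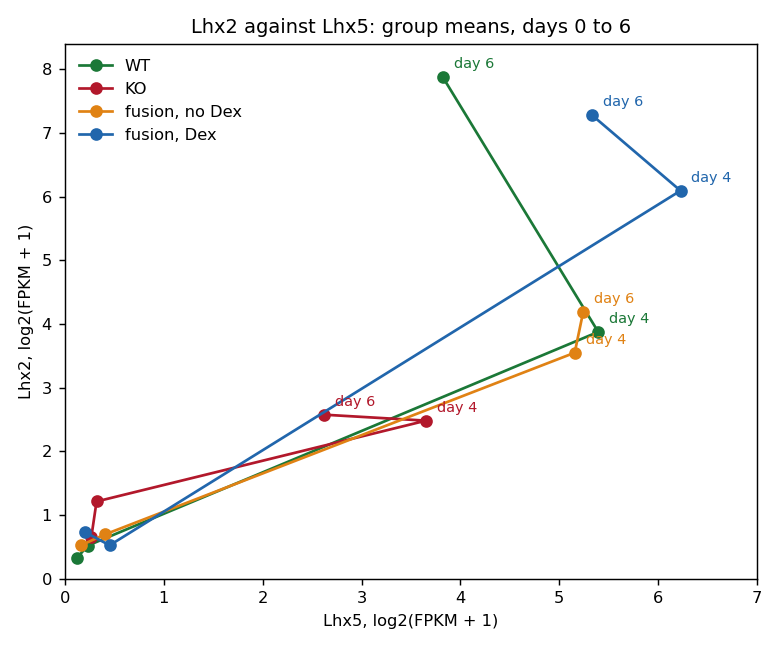
Group means of Lhx2 (vertical) against Lhx5 (horizontal), both as log2(FPKM + 1), with a line from day 0 to day 6 for each culture. WT moves right and up between days 2 and 4, as Lhx5 gains 5.16 and Lhx2 3.36. It then moves up and left, as Lhx2 gains 4.00 and Lhx5 loses 1.57. On the Lhx2 axis KO is lowest at days 4 and 6, and no Dex ends between KO and Dex.

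Whether the culture differences themselves depended on the day was tested with interaction contrasts in the same fit. For KO against WT, all 3 tested members had a difference at day 6 unlike that at day 0, where 56.9% of genes did. For Dex against no Dex, Lhx2 and Lhx9 did, where 48.7% of genes did, and Lhx5 differed by 0.05 (adjusted p = 0.634). Between days 4 and 6 the difference of all 3 changed in each comparison, where 48.0% and 41.2% of genes did. For Lhx2 in Dex against no Dex that change was 0.54 (adjusted p = 0.03), and its call held in 5 of 14 alternatives, with adjusted p up to 0.296. For Lhx5 in KO against WT it was 0.54 and was lost with a pseudocount of 0.1 (adjusted p = 0.19). Lhx2 and Lhx5 correlated at Pearson r = 0.85 over the 16 group means, and the other pairs of members between 0.09 and 0.36. These means share the day course of the cultures, and the coefficients are descriptions only.

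The other genes of the LIM system did not follow one member. Of 8 further LIM homeobox genes, 4 reached the filter (Lhx6, Isl1, Lmx1a and Lmx1b), and Lhx3, Lhx4, Lhx8 and Isl2 did not. Counts in this and the other lists are read against all tested genes, of which 30.9% were higher and 34.2% lower in KO against WT at day 6, and 23.8% higher and 19.0% lower in Dex against no Dex. They are descriptions, since some list genes passed the filter only through groups in which they were high. In KO against WT at day 6, 2 of the 4 rose, 1 fell, and their median was 0.76 against -0.03 over all genes. Lmx1a, a factor of the roof plate and midbrain floor plate, rose from 0.215 to 5.73 FPKM (log2 change 2.47, adjusted p = 8.43e-17), and its relative Lmx1b from 0.945 to 3.84 FPKM (1.31, adjusted p = 1.11e-11). Isl1 differed by 0.21 (adjusted p = 0.138), and the count of 2 was 3 without KO replicate 2. Lhx6, a factor of cortical interneurons, fell by 0.26 (adjusted p = 0.00568), a count of 1 that became 0 without WT replicate 1. In Dex against no Dex at day 6, 3 of the 4 fell and none rose, with a median of -0.74 against 0.01. Isl1 passed the filter only through the no Dex libraries of day 6, where it averaged 1.38 FPKM, so its fall is a description. Lmx1a fell by 0.99 (adjusted p = 4.82e-10), Lmx1b by 0.52 (1.55e-05) and Isl1, a motor neuron and retinal ganglion cell factor, by 0.95 (2.74e-06).

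LIM cofactors and LIM-only genes, all 10 of them tested, were not all present at every day. Lmo3 was listed at 0 in WT, KO and Dex at day 0, and its group means were at most 0.905 FPKM before day 6. In KO against WT at day 6, 3 rose and 5 fell, with a median of -0.09, where 30.9% of all tested genes rose and 34.2% fell. Ldb1, the shared partner, rose by 0.46 (adjusted p = 2.81e-12), from 170 to 234 FPKM, and Rlim, a ubiquitin ligase that acts on Ldb proteins, by 0.55 (5.52e-11). The LIM-only genes fell, Lmo3 by 1.78 (adjusted p = 6.99e-17), Lmo1 by 1.63 (4.03e-12), Lmo2 by 1.05 (1.74e-06) and Lmo4 by 0.35 (1.37e-05). In Dex against no Dex at day 6, 7 rose and 1, Rlim, fell, with a median of 0.52, where 23.8% of all tested genes rose and 19.0% fell. Those that rose included Lmo1 by 1.04 (adjusted p = 1.75e-08) and Lmo4 by 0.84 (3.68e-10). Means without and with Dex were 12.07 and 20.3 FPKM for Lmo3, and 1.90 and 5.36 FPKM for Lmo2. The means of Lmo1, Lmo2, Lmo3 and Lmo4 thus moved in the direction of Lhx2 both with the knockout and with Dex.

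**Figure D4:**
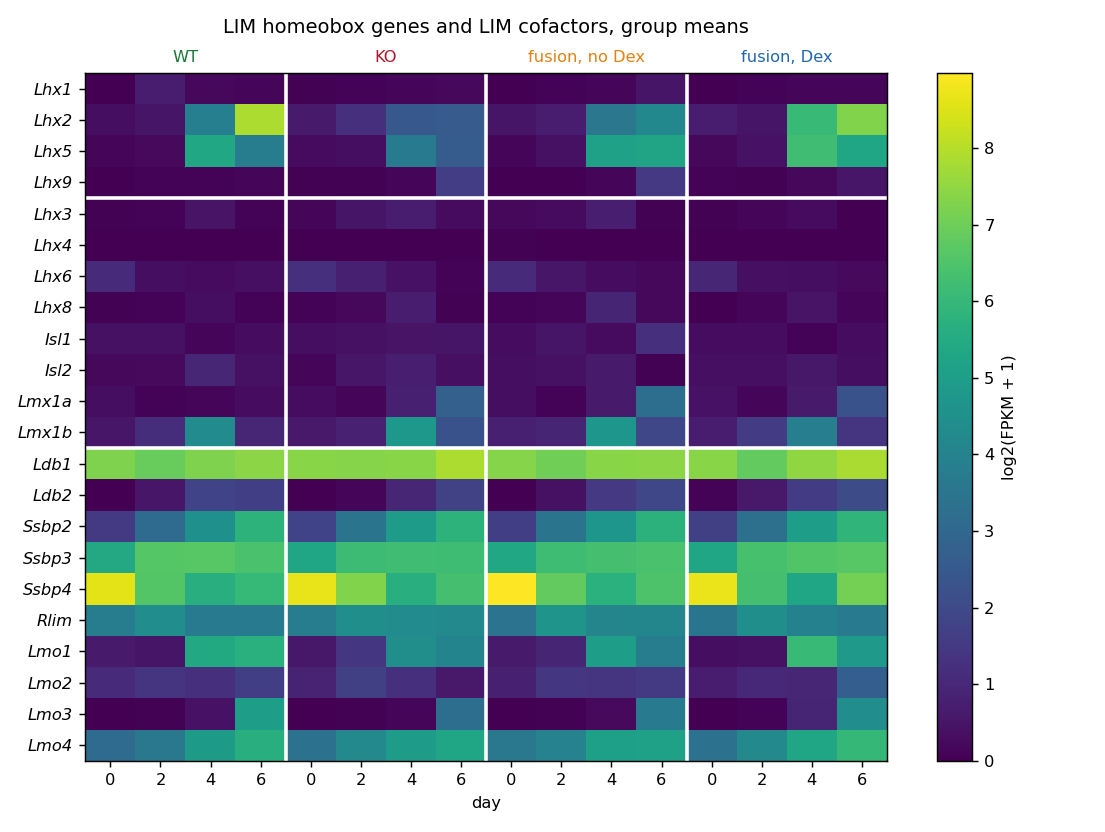
Group means as log2(FPKM + 1), on a colour scale, of the 4 members (top), 8 other LIM homeobox genes (middle) and 10 LIM cofactors and LIM-only genes (bottom), by day within WT, KO and the fusion line without and with Dex. Ldb1 is bright in every column, Lhx2 is brightest in WT at day 6, and Lmx1a is bright at day 6 in KO and no Dex but not in WT.

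Genes known to act with Lhx2 in the optic vesicle moved in the same direction at day 6. All 10 were tested. In KO against WT, 8 fell and none rose, with a median of -3.41. Six6 fell by 6.11 (adjusted p = 2.01e-23) and Pax2, of the optic stalk, fell by 4.88 (3.14e-23). Vax2, of the ventral retina, fell by 5.18 (9.77e-17), and Mitf, of the pigmented layer, fell by 1.83 (5.21e-14). Bmp7 had means of 8.47 FPKM (WT) and 8.44 FPKM (KO), and Tbx5 0.015 FPKM in both. In Dex against no Dex at day 6 all 10 rose, with a median of 2.06, Bmp4 by 2.97 (adjusted p = 4.94e-07). Tbx5, of the dorsal retina, was listed at 0 without Dex and at 2.02 FPKM with it. It passed the filter only through those Dex libraries, so its rise is a description. At day 4, when Lhx2 already differed 6.29 times, 3 of the 10 were higher with Dex and 1 lower, where 18.3% of all tested genes were higher and 21.9% lower. Those higher were Rax by 3.34 (adjusted p = 1.49e-17), Six3 by 1.88 (2.62e-13) and Pax2 by 0.69 (1.72e-09). In KO against WT at day 4, 3 of the 10 were higher and 3 lower, where 36.5% and 24.0% of all tested genes were. Of the 5 retinal tissue markers, 4 fell in KO and 4 rose with Dex at day 6, and Pax6 differed by 0.02 and -0.03. These lists were drawn up with results of these libraries known, so their direction is not independent evidence.

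Anterior head genes, which act with Lhx1 or Lhx5, were mixed. Of 7, 6 were tested, and 2 rose and 3 fell in KO against WT at day 6 (median -0.65), the 2 being near the background of 30.9% of all tested genes that rose, where 34.2% fell. Hesx1, a forebrain repressor, fell from 13.9 to 0.185 FPKM (log2 change -3.65, adjusted p = 3.66e-15), and Otx2, a head determinant, rose by 0.95 (6.3e-16). The Wnt inhibitors went apart. Dkk1 fell by 1.06 (adjusted p = 4.94e-10), Sfrp5 by 1.16 (5.96e-09), and Sfrp1 rose by 0.07 (0.0459), a call lost with a pseudocount of 0.1, with no filter, in a fit of the compared groups, and without WT replicate 2 or either KO library. With Dex at day 6, 2 rose and 1 fell (median 0.13), where 23.8% of all tested genes rose and 19.0% fell. At day 4, when Lhx5 was higher with Dex, 5 of the 6 rose, where 18.3% of all tested genes did, Hesx1 by 1.11 (adjusted p = 8.13e-07), a count between 3 and 5 over the alternatives.

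At day 6 Lhx9 and the sum of neuronal markers stood in the same order over the cultures, though not every marker did. Summed over 6 markers of postmitotic neurons (Tubb3, Dcx, Elavl3, Elavl4, Stmn2 and Map2), day 6 libraries held between 311.25 and 315.41 FPKM in KO, between 255.31 and 255.51 without Dex, between 152.23 and 153.48 with Dex and between 47.32 and 49.69 in WT. The sum was mostly Tubb3, at 266 FPKM in KO. Tubb3, Dcx and Elavl3 kept this order. Elavl4 and Map2 were higher without Dex (7.255 and 9.91 FPKM) than in KO (6.675 and 7.525 FPKM). Stmn2 was higher in WT (11.255 FPKM) than with Dex (6.855 FPKM). Dcx passed the filter only through the KO and no Dex libraries of day 6. All 6 rose in KO against WT (median 1.40), Tubb3 by 3.15 (adjusted p = 2.01e-23), and all 6 fell with Dex (median -0.85). Their part in the Lhx9 value was not tested. At day 4 the same sums lay between 183.18 and 250.63 FPKM in the 4 cultures while Lhx9 was at most 0.15 FPKM, and at day 0 between 296.66 and 340.72 FPKM while Lhx9 was at most 0.09 FPKM.

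Regional marker lists, of 4 or 5 tested genes each, gave counts in both directions in KO, while with Dex more fell than rose in each list. Of all tested genes, 30.9% were higher and 34.2% lower in KO, and 23.8% and 19.0% with Dex. Of 6 diencephalon and thalamus markers 5 were tested, with 2 higher and 3 lower in KO at day 6 (median -0.35). Barhl2, of the thalamic and spinal neurons, rose from 1.565 to 12.5 FPKM (log2 change 2.40, adjusted p = 1.62e-18), and Gbx2, which marks the thalamus, was at 0.30 FPKM. With Dex 1 rose and 3 fell (median -0.29), Barhl2 by 1.43 (adjusted p = 4.01e-14). Of 5 Cajal-Retzius and cortical hem markers 4 were tested. In KO 2 rose and 1 fell (median 0.51). Wnt3a rose by 1.25 (adjusted p = 2.91e-12), and Reln, which Cajal-Retzius cells secrete, fell by 0.67 (0.00126). With Dex 2 fell and none rose (median -0.15), and 1 fell without no Dex replicate 1 or Dex replicate 2. Of 6 retinal ganglion, horizontal and amacrine markers 4 were tested, with 2 higher and 1 lower in KO (median 0.55) and 3 lower with Dex (median -0.53). Tfap2b was at 15.5 FPKM in KO, while Pou4f2, which defines retinal ganglion cells, was at 0.085 FPKM.

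Lists for other tissues were also counted, against the same shares of all tested genes. Of 5 intermediate mesoderm and kidney markers 3 were tested, and in KO against WT at day 6 2 fell and none rose (median -0.43), and 1 fell without KO replicate 1. With Dex none was called. Emx2, also a forebrain gene, fell in KO by 0.71 (adjusted p = 0.00426) and Pax8 by 0.43 (0.00547). Of the mesendoderm and visceral endoderm markers, 7 of 7 fell in KO at day 6 (median -2.24) and 6 rose with Dex (median 0.47). Foxa2, Afp and Ttr, counted among the 7, had group means of at least 1 FPKM only in WT. All 4 stem cell markers fell in KO at day 6 (median -1.12), and with Dex 2 fell (median -0.24).

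By Pearson r of log2(FPKM + 1) over the 16 group means, among 10723 named genes with a group mean of at least 5 FPKM, the most alike to Lhx2 were Six3os1 (r = 0.98), Eya2 (0.97) and Fezf1 (0.96). Six3os1, a transcript opposite Six3, reached 91.7 FPKM in WT and 25.3 FPKM with Dex at day 6, and Eya2, a partner of Six3 and its relatives, 32.2 and 13.9 FPKM. Most alike to Lhx5 were Rbm24 and Sema3a (0.96 each) and Sox9 (0.95), and Sema3a peaked with Dex at day 4, at 6.42 FPKM. Most alike to Lhx9 were the neuronal factors Nhlh1 (0.99) and Prdm12 (0.99) and the dorsal neural factor Pax7 (0.98), at 10.6, 8.87 and 16.7 FPKM in KO at day 6 and at most 0.29 FPKM in WT. Lhx1 had no close match, with Ctsc (0.73), Apoa1 (0.72) and Mcm9 (0.69) leading. With Spearman correlations none of these 3 leading genes was kept for any member.

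Annotated transcripts near the members were read for their position. The antisense gene Gm27199 shares 69 exonic bases with Lhx5. It was at 1.675 FPKM in WT and 2.965 FPKM with Dex at day 4 and 0.385 FPKM in KO, and since the strand setting of the counting is not given, reads in the shared bases cannot be assigned to one gene. Within Lhx2 but outside its exons, the antisense gene Gm27197 was at 2.20 and 2.62 FPKM in WT at day 6, at 0.72 and 1.36 FPKM with Dex, and listed at 0 in KO. Lhx1os, 124 bases from Lhx1, stayed at or below 0.25 FPKM.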

How the data were processed

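RNA-seq of polyadenylated RNA was measured in 32 libraries. The authors deposited FPKM, normalized per length and depth and rounded to 2 decimals; STAR, Cuffdiff and the build mm10 are named in the submitters' processing notes without versions, and the annotation and strand setting are not given in the sources used here. Every column mapped to a sample by its title. Depth was estimated from FPKM steps. The share of low values no further than 0.2 from a whole number of fragments was 82.7% to 91.8%, where chance gives 40.0%. Floors cover counting error only.

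Tests used limma 3.58.1 in R 4.3.3 (lmFit, contrasts.fit, eBayes with trend) on log2(FPKM + 1), two-sided, with 16 residual degrees of freedom. On simulated data for KO against WT at day 6 (16276 genes), 175 of 200 genes changed by 1 on the log2 scale were recovered and 7.41% of 189 calls were false. Alternatives were a pseudocount of 0.1, no filter, a mean FPKM of at least 5, median-of-ratios rescaling, only the compared groups, a replicate block, a log2 change of at least 1, and leaving out each library.

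Genes named were the members, the lists given with their counts (LIM homeobox relatives, LIM cofactors and LIM-only, optic vesicle, anterior head and 8 marker lists) and the 3 genes most alike to each member; neighbouring transcripts were added for their position. 1 gene within the lists is counted there but not reported here. Members and lists were chosen with earlier results of these data known. Promoters are from RefSeq and coding windows from GENCODE M21.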

Additional observations from a re-analysis of the deposited data

Results flagged for a closer look

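Groups of 2 libraries allow no test of an outlying sample. The results below were picked out because a difference between cultures changed with the day, by an interaction contrast in limma with Benjamini-Hochberg adjustment over all tested genes.

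For KO against WT, the Lhx2 difference at day 6 was lower than at day 0 by -5.63 ± 0.19 (SE; adjusted p = 1.3e-14) and lower than at day 4 by -3.91 (4.83e-12) on the log2 scale. The Lhx5 difference was -1.35 from day 0 (adjusted p = 4.72e-11), but 0.54 from day 4 (2.11e-05), WT having fallen by 1.57 and KO having fallen by 1.03 between those days. With a pseudocount of 0.1 the latter was 0.48 (adjusted p = 0.19). For Lhx9 the changes were 1.47 (adjusted p = 2.63e-11) and 1.42 (8.95e-11).

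For Dex against no Dex, the Lhx2 difference at day 6 exceeded that at day 0 by 2.88 (adjusted p = 6.11e-10) and that at day 4 by 0.54 (0.03). The latter was not called with a pseudocount of 0.1 (adjusted p = 0.296), with no filter (0.0612), or without any 1 of 7 of the 8 libraries. The Lhx5 difference was smaller at day 6 than at day 4, by -0.98 (adjusted p = 1.56e-08). The Lhx9 difference was -0.99 from day 0 (adjusted p = 1.74e-08) and -0.98 from day 4 (2.89e-08).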

How the results depend on the processing

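Rescaling moved the median over all genes by at most 0.1 on the log2 scale in every comparison. Directions and calls of Lhx2 and Lhx5 at days 4 and 6 held under every alternative between cultures, except that Lhx2 in Dex against WT at day 6 was -0.60 (adjusted p = 0.0536) with a pseudocount of 0.1. For no Dex against KO at day 6, Lhx9 was -0.24 with that pseudocount, -0.15 after rescaling and -0.17 in a fit of the compared groups, none of them called, and -0.23 to -0.10 with a library left out. The cause was not tested.

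Signs turned where a value was near 0. Lhx9 without Dex from day 0 to 2 was -0.0032 after rescaling, and the Lhx5 change in Dex against no Dex from day 0 to day 6 was -0.088 with a pseudocount of 0.1. With 1 library left out, Lhx9 ran from -0.069 to 0.014 in KO against WT at day 2, -0.078 to 0.013 for no Dex against KO at day 4, -0.075 to 0.007 in Dex against WT at day 2, -0.034 to 0.049 in WT from day 2 to 4, -0.028 to 0.014 in KO from day 0 to 2 and -0.0141 to 0.0142 without Dex over those days. Lhx5 ran from -0.038 to 0.11 in Dex against no Dex at day 0, -0.030 to 0.13 in KO from day 0 to 2 and -0.023 to 0.13 for the change in Dex against no Dex from day 0 to 6. Lhx2 ran from -0.14 to 0.16 in Dex against WT at day 2 and from -0.0012 to 0.18 in KO from day 4 to 6. A lone library left in a group was taken to vary like the others.

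Fitting only the compared groups lowered the genes called in KO against WT at day 0 from 7849 to 3357, in no Dex against KO from 6027 to 3941 at day 2 and from 4339 to 2284 at day 4, and in Dex against WT from 8106 to 4342 at day 0 and from 4782 to 2603 at day 2. Asking for a log2 change of at least 1 took the 32 counts from between 4339 and 11055 to between 38 and 2043, and a mean of at least 5 FPKM (9412 genes tested) took 10 day-step counts to between 6469 and 7339. Lhx1 and Lhx9 could not be tested at a mean of 5 FPKM or more. Same-numbered libraries did not deviate together (r from -0.09 to 0.13 over 120 pairs of groups, 4 of them over 0.1). A replicate block kept each count of calls within 1.5 times and changed 3 calls, Lhx2 (adjusted p = 0.0431) and Lhx5 (0.0519) in KO against WT at day 0 and Lhx9 with Dex from day 2 to 4 (0.053). Counts for lists under these alternatives were added after seeing the data.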

Other observations

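Other genes at day 4 and day 6 differed between the cultures in their own ways. Irx3, a factor of the caudal forebrain, was at 95.6 FPKM in KO and 4.66 FPKM in WT at day 4, a log2 change of 4.10 (limma adjusted p = 6.59e-20). With Dex it was lower than without at day 4 by -2.61 (adjusted p = 7.97e-17). Emx2, a cortical factor, was at 72.4 FPKM without Dex and 87.5 FPKM with Dex at day 6, against 9.31 FPKM in KO and 15.96 FPKM in WT, the same order of group means as Lhx5 at that day. Foxd1, of the ventrotemporal retina and diencephalon, was at 8.22 FPKM with Dex and 2.33 FPKM in WT at day 6. Lmx1b reached 26.9 FPKM in KO and 19.4 FPKM in WT at day 4.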
